A study of Vitis rotundifolia with 12 samples.

Results

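In pedicel tissue of muscadine grape, 76 gene models held a steady share of gene counts across 2 genotypes and 2 stages of fruit development. A gene model was counted as steady when its mean over 12 libraries was at least 30 CPM and its highest CPM was at most 1.6 times its lowest. CPM is the count of a gene model as a share of all gene counts of its library, scaled to a total of 1000000. The 76 are 1.13% of the 6715 gene models averaging at least 30 CPM, and the files list 26394 gene models in all. Of the 76, 33 stayed within 1.6 also with both TMM and DESeq2 scaling of the libraries, described below. The measured CPM of all 12 libraries chose these gene models, so their ratios, levels and group differences in the same libraries are given as a description with no test.

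Ga. 12-3-22 (W, labelled weakly attached) and Ga. 6-1-269 (S, labelled strongly attached) were each sampled at pea-size and at maturity. The tissue was the pedicel, frozen in nitrogen after collection from field-grown vines, with 3 biological replicates in each of the 4 groups. No transgene or chemical treatment separates the groups, each genotype is represented by a single breeding selection, and genotype and stage are the factors that vary. A whole pedicel is a mixture of cell types, so fewer cells of a type and less RNA per cell cannot be told apart in these values. Gene counts ranged from 4705119 to 21971736 per library, with a median of 11427219. S maturity replicate 1 stood apart from the other libraries: 30.4% of its reads fell on no gene model, and a single gene model, evm.model.chr2.1477, took 12.3% of its gene counts. The other 11 libraries had 10.6% to 21.8% of reads on no gene model and at most 6.94% of gene counts on their leading gene model. Both of these highest values were those of S maturity replicate 2, whose leading gene model was also evm.model.chr2.1477. In S maturity replicate 3 the shares were 11.0% and 0.757%. Group differences over the 76, held-out shares and counts of calls read in S maturity are also given without S maturity replicate 1. Where it only helped to choose the gene models for a test, the calls were not counted without it.

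The pedicel is the stalk that carries the berry, and its junction with the fruit holds the abscission zone, the layer of cells at which the fruit separates. Expression in such tissue is often read by RT-qPCR, where the level of a target transcript is divided by that of a reference transcript, so a shift of the reference between stages or genotypes shifts every target measured against it. Actin, ubiquitin, elongation factor and tubulin genes are in common use as references in plants, and a grape actin gene served as the internal control of this study's RT-qPCR. The identifiers of the gene models were not paired with gene names here: 0 of them occurred in the reference table of the cultivar 'Carlos', so no gene role is given, and the actin gene was not matched. An identifier holds the chromosome of the 'Noble' genome and a running number along it, and evm.model.chr11.606 is thus number 606 on chromosome 11.

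The 76 gene models covered mean levels from 36.3 to 1061 CPM, with a median of 86.9. CPM is not corrected for transcript length, so these levels compare libraries and not the abundance of different transcripts. The ratio of the highest to the lowest library ran from 1.34 to 1.598 with a median of 1.53, against a median of 3.42 over the gene models averaging at least 30 CPM and a count above 0 in every library. Of the 4413 gene models between 30 and 100 CPM 43 were steady (0.974%), of the 1830 between 100 and 300 CPM 20 (1.09%), and of the 404 between 300 and 1000 CPM 12 (2.97%). Among the 68 gene models at 1000 CPM or more, 1 was steady. The coefficient of variation (CV, the SD over the 12 libraries as a percent of the mean) lay between 9.89% and 16.7% with a median of 13.5%, and the median over all gene models averaging at least 30 CPM was 35.8%. Counting alone gave a median CV of 3.45% for the 76, whose lowest count in any library was between 168 and 5044.

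**Figure D1:**
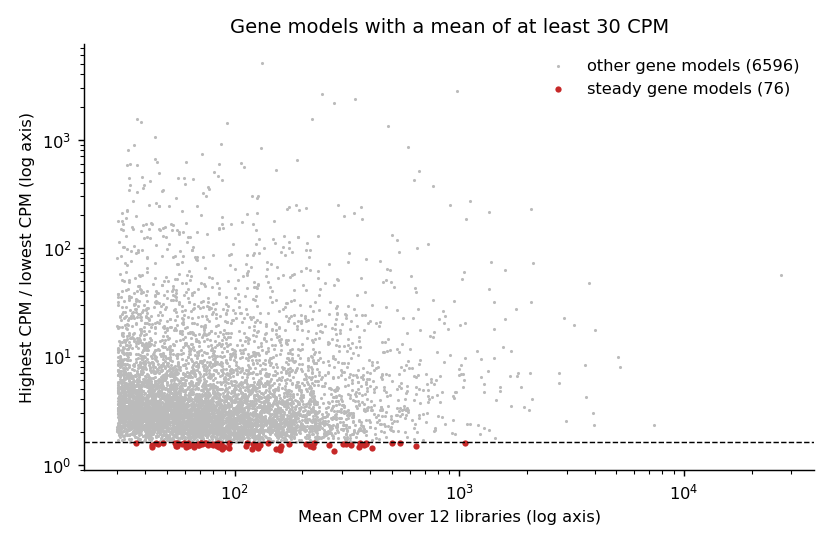
Ratio of the highest to the lowest CPM over 12 libraries (vertical, log axis) against mean CPM (horizontal, log axis) for gene models averaging at least 30 CPM and a count above 0 in every library. Red points are the 76 steady gene models, grey points the others, and the dashed line is the limit of 1.6 that chose the red points, which span 36.3 to 1061 CPM.

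The lowest ratio of the 76 belonged to evm.model.chr11.606, with a mean of 275.6 CPM. Its W pea-size libraries had 284.2, 294.9 and 253.0 CPM and its W maturity libraries 245.3, 244.2 and 235.0 CPM. Its S pea-size libraries had 310.3, 315.6 and 272.3 CPM and its S maturity libraries 237.1, 301.1 and 314.4 CPM. The highest library, S pea-size replicate 2, exceeded the lowest, W maturity replicate 3, by a ratio of 1.34. All W maturity libraries were below all W pea-size libraries (241.5 ± 5.65 against 277.3 ± 21.8 CPM, mean ± SD, n = 3), whereas the S stages overlapped.

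evm.model.chr2.1667 came next with a ratio of 1.38. It had 140.6, 152.2 and 173.7 CPM at W pea-size, 164.1, 180.7 and 151.1 CPM at W maturity, 155.5, 141.0 and 138.3 CPM at S pea-size and 170.9, 141.9 and 190.4 CPM at S maturity. The stages overlapped in both genotypes, and the S maturity libraries alone spanned most of the range. evm.model.chr8.246 had 93.2, 74.2 and 73.7 CPM at W pea-size, 100.5, 79.1 and 90.0 CPM at W maturity, 83.5, 90.5 and 102.6 CPM at S pea-size and 78.0, 96.7 and 92.1 CPM at S maturity. Every group of evm.model.chr8.246 overlapped every other group, and its ratio was 1.39.

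evm.model.chr8.1656, with a ratio of 1.40, owed its range to a single library. It had 111.3, 110.9 and 121.3 CPM at W pea-size, 107.3, 110.3 and 107.6 CPM at S pea-size and 121.0, 124.7 and 124.1 CPM at S maturity. At W maturity it had 112.4, 149.7 and 126.3 CPM, and without W maturity replicate 2 the ratio over the remaining libraries was 1.18. The S maturity libraries lay above all S pea-size libraries, at 123.3 ± 1.99 against 108.4 ± 1.62 CPM (mean ± SD, n = 3). evm.model.chr5.1553 had the lowest CV of the 76, 9.89%, at a ratio of 1.41. Its CPM was 150.9, 121.9 and 125.3 at W pea-size, 169.2, 155.6 and 171.5 at W maturity, 151.1, 153.8 and 156.7 at S pea-size and 162.1, 160.1 and 152.1 at S maturity. The S libraries of evm.model.chr5.1553 lay close together at both stages, while its W maturity libraries were all above its W pea-size libraries (165.4 ± 8.60 against 132.7 ± 15.9 CPM, n = 3).

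The gene models with the highest mean CPM were evm.model.chr8.1965 (1061 CPM), evm.model.chr10.1391 (643.9 CPM) and evm.model.chr17.344 (543.9 CPM). evm.model.chr8.1965 had 939.2, 860.5 and 1375 CPM at W pea-size, 1072, 1094 and 1153 CPM at W maturity, 1101, 1215 and 1091 CPM at S pea-size and 897.2, 986.6 and 951.7 CPM at S maturity. Both its highest and its lowest library were W pea-size libraries, and its S maturity libraries were all below its S pea-size libraries. evm.model.chr10.1391 had 721.7, 761.7 and 714.7 CPM at W pea-size, 642.1, 692.6 and 711.8 CPM at W maturity, 517.6, 550.1 and 658.5 CPM at S pea-size and 508.5, 598.4 and 648.9 CPM at S maturity. At the pea-size stage every W library of this gene model was above every S library. evm.model.chr17.344 had 484.8, 532.0 and 676.5 CPM at W pea-size, 576.2, 464.8 and 531.7 CPM at W maturity, 502.2, 545.4 and 621.6 CPM at S pea-size and 424.8, 626.0 and 541.4 CPM at S maturity, and all 4 groups overlapped.

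**Figure D2:**
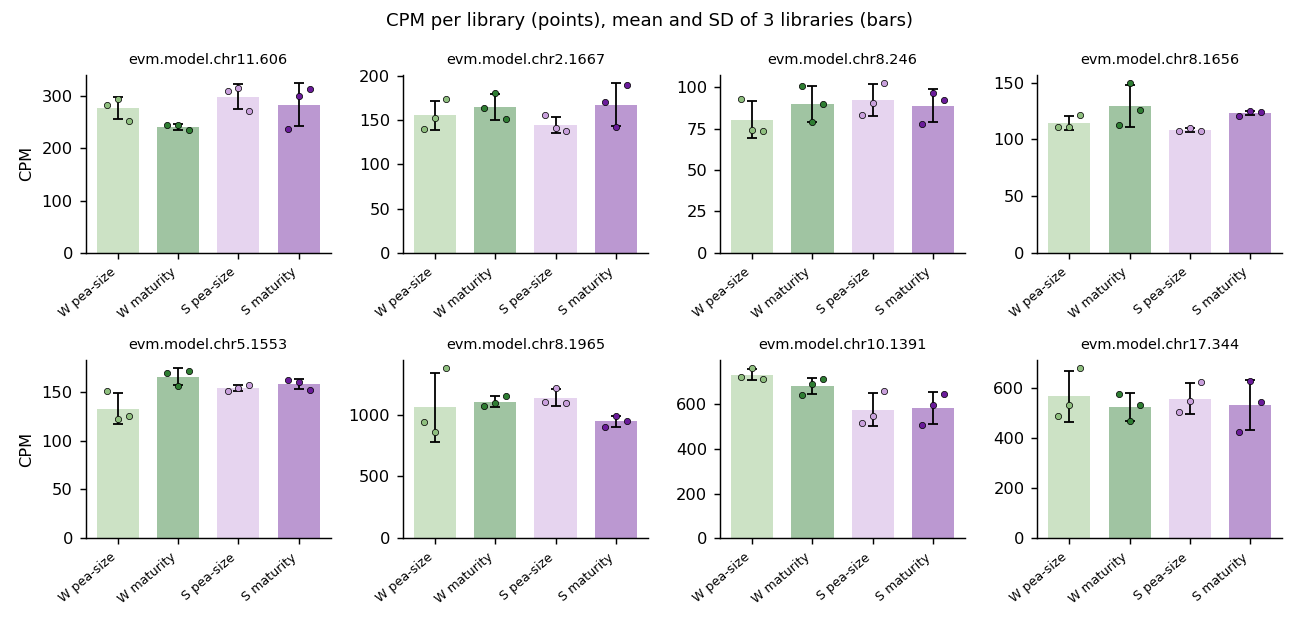
CPM (vertical, from 0) of the 5 gene models with the lowest ratio and the 3 with the highest mean CPM, by group (horizontal). Points are libraries, bars the mean of 3 libraries and error bars the SD, and the range of evm.model.chr11.606 from 235.0 to 315.6 CPM is the narrowest by ratio.

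At the other end of the level range was evm.model.chr6.2065, with a mean of 36.3 CPM and 27.8 to 44.0 CPM over the libraries. Its lowest count was 177, so counting error weighed more on it than on the abundant gene models. The member just inside the ratio limit was evm.model.chr15.192 (ratio 1.598, 46.0 to 73.4 CPM), and just outside lay evm.model.chr13.330 (ratio 1.6003, mean 102.9 CPM). evm.model.chr19.630 met the ratio limit at 1.52 and missed the level limit with a mean of 29.1 CPM. These values show how close to the limits the choice was made. With a ratio limit of 1.5 the rule gave 25 gene models and with a limit of 2 it gave 635. A level limit of 10 CPM gave 79 and a level limit of 100 CPM gave 33.

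The CV within groups had a median of 12.5% and the CV of the 4 group means a median of 8.56%, and the group means varied more than the replicates in 13 of the 76. A mean of 3 libraries varies less than a single library by averaging alone. Over all gene models averaging at least 30 CPM these medians were 27.4% and 27.6%, and the group means varied more than the replicates in 3365 of 6715. The highest of the 4 group means exceeded the lowest by a ratio of 1.03 to 1.39 (median 1.21), against a median of 1.88 over the 6715. Within a group of 3 libraries the median ratio of highest to lowest for the 76 was 1.24 at W pea-size, 1.21 at W maturity, 1.22 at S pea-size and 1.27 at S maturity. The same medians over the 6715 were 1.67, 1.44, 1.302 and 1.86. The rule used these libraries and bounded the ratios of the 76, so nothing is read from the contrast with the 6715. When S maturity replicate 1 was left out, the CV within groups of the 76 had a median of 12.2%. The CV of their group means had a median of 8.56%, and the group means varied more in 22 of the 76. Over the 6715 these medians were 22.3% and 31.5%, and the group means varied more in 4720. The highest group mean then exceeded the lowest by a median ratio of 1.21 (2.09 over the 6715). The median ratio within the other 2 S maturity libraries was 1.09 for the 76 and 1.21 over 6708 gene models averaging at least 30 CPM with a count in both.

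On CPM, the scale that chose the set, no stage or genotype held the highest level for the set as a whole. The group most often lowest was S pea-size. The highest group mean was that of W maturity for 23 gene models, of S pea-size for 23, of W pea-size for 16 and of S maturity for 14. The lowest was that of S pea-size for 29, of S maturity for 18, of W maturity for 15 and of W pea-size for 14. Over the 6715 gene models averaging at least 30 CPM, counts of the highest mean were 1817, 1674, 1493 and 1731 in the same order. Counts of the lowest mean were 1695, 2558, 1092 and 1370. The CPM ratio of maturity to pea-size ran from 0.794 to 1.34 in W (median 1.02, 43 above 1 and 33 below) and from 0.744 to 1.296 in S (median 1.02, 42 above and 34 below). At the pea-size stage their CPM ratio of W to S ran from 0.746 to 1.36 (median 1.03, 43 above 1 and 33 below). At maturity it ran from 0.777 to 1.28 (median 1.02, 44 above and 32 below). Over the 6715 the maturity to pea-size ratio was above 1 for 3629 and below for 3085 in W. In S these counts were 3012 and 3703. Their ratio of W to S was above 1 for 3552 and below for 3163 at pea-size. At maturity these counts were 3956 and 2759. With that outlying library, S maturity replicate 1, left out, the highest group mean was most often that of S maturity (25), the ratio of maturity to pea-size in S had a median of 1.05 (49 above 1 and 27 below), and the ratio of W to S at maturity had a median of 0.994 (36 above and 40 below). The group most often highest thus changed on leaving out this library, while S pea-size stayed the group most often lowest (30). The picture also depended on the scale. On TMM-scaled counts, described below, the fitted log2 fold change of W over S at pea-size was above 0 for 64 and below for 12. At maturity it was above 0 for 36 and below for 40.

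**Figure D3:**
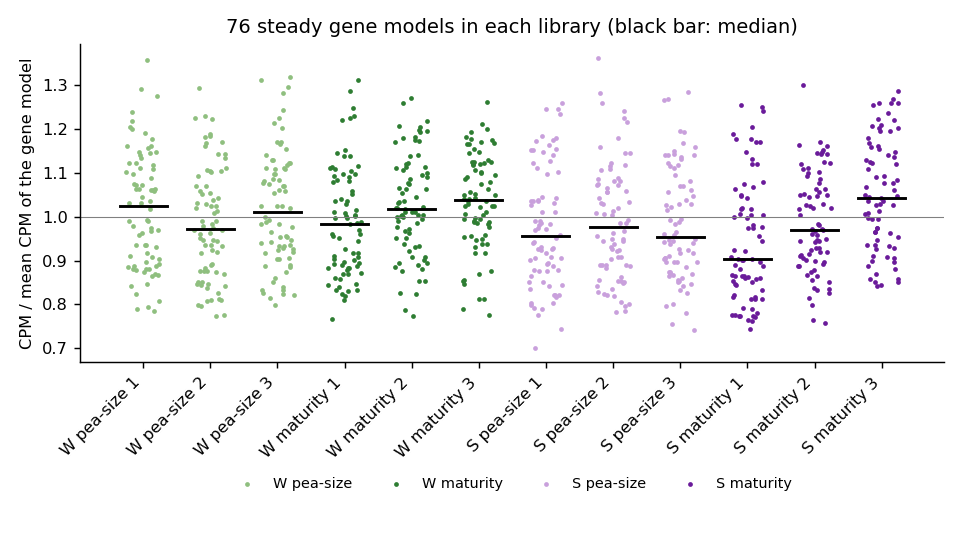
CPM of each of the 76 steady gene models divided by its mean over the 12 libraries (vertical), by library (horizontal), with points coloured by group and black bars at the median. The medians run from 0.903 in S maturity replicate 1 to 1.04 in S maturity replicate 3, and every library holds points on both sides of 1.

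For some of the 76 the libraries of 2 groups did not overlap, which groups of 3 libraries can also do by chance. The maturity and pea-size libraries of W did not overlap for 16 of the 76 (7 higher at maturity, 9 lower), which is 21.1% beside 20.4% of the 6715 gene models averaging at least 30 CPM. In S the stages did not overlap for 15 (7 higher, 8 lower), 19.7% beside 38.3%. W and S did not overlap for 13 at the pea-size stage (W above in 10, below in 3), 17.1% beside 37.7%, and for 11 at maturity (W above in 10, below in 1), 14.5% beside 32.9%. On leaving out S maturity replicate 1, the S stages did not overlap for 28 (16 higher at maturity, 12 lower), 36.8% beside 69.7%, and W and S at maturity for 22 (W above in 12, below in 10), 28.9% beside 64.7%, where a group of 2 libraries overlaps less easily than a group of 3. The rule used these contrasts, and nothing is read from the shares.

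evm.model.chr13.384 had the largest fitted rise in W among the 76. Its CPM was 170.5, 184.1 and 203.7 at W pea-size and 238.7, 255.5 and 254.4 at W maturity, with no overlap. In S it had 189.5, 223.5 and 187.4 CPM at the pea-size stage and 216.8, 222.5 and 247.9 CPM at maturity, where the stages overlapped. The fitted log2 fold change (log2FC) was 0.39 with a standard error (SE) of 0.22 in W and 0.35 (SE 0.23) in S, on counts scaled by the trimmed mean of M-values (TMM).

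evm.model.chr3.577 had the largest fitted fall in W and a fitted rise in S (log2FC -0.37, SE 0.22, and 0.46, SE 0.22). Its W libraries had 210.3, 193.1 and 204.3 CPM at the pea-size stage and 153.4, 156.4 and 172.5 CPM at maturity, with no overlap. In S it had 148.8, 149.2 and 148.1 CPM at the pea-size stage and 141.9, 199.7 and 219.8 CPM at maturity. S maturity replicate 1 was thus below the S pea-size libraries and the other 2 S maturity libraries were above them. Every W pea-size library was above every S pea-size library, and the fitted log2FC of W over S was 0.60 (SE 0.19) at that stage and -0.23 (SE 0.24) at maturity.

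In S the largest fitted rise was that of evm.model.chr13.2550, from 41.9, 55.2 and 45.1 CPM at the pea-size stage to 56.7, 62.9 and 64.6 CPM at maturity (log2FC 0.53, SE 0.22). Its W libraries overlapped, with 49.7, 46.1 and 60.1 CPM at the pea-size stage and 66.5, 57.6 and 42.7 CPM at maturity. evm.model.chr7.853 had the largest fitted fall of S, from 237.8, 243.7 and 226.3 CPM to 168.6, 156.6 and 201.3 CPM (log2FC -0.28, SE 0.23). The S stages of both gene models were separated without overlap, and the W libraries of evm.model.chr7.853 overlapped, at 210.2, 217.3 and 232.1 CPM against 174.3, 199.1 and 212.6 CPM.

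None of the 76 was called in any of the 5 comparisons by edgeR's quasi-likelihood test at a Benjamini-Hochberg adjusted p of at most 0.05. The rule used these contrasts, so the count of 0 is a property of the choice and nothing is read from it. Of all gene models tested, 0.639% were called for stage in W, 10.6% for stage in S, 11.4% for genotype at the pea-size stage, 1.98% for genotype at maturity and 2.29% for the stage by genotype interaction. Of those averaging at least 30 CPM the shares were 1.27%, 14.1%, 15.5%, 3.31% and 4.35%. At an unadjusted p under 0.05 edgeR counted 0 of the 76 for stage in W, 2 for stage in S, 6 for genotype at the pea-size stage, 0 for genotype at maturity and 3 for the interaction. The shares of all gene models tested at this unadjusted p were 9.7%, 26.6%, 26.7%, 19.5% and 15%. DESeq2 called evm.model.chr3.577 for genotype at the pea-size stage and for the interaction, and no other member in any comparison. It called 2.71%, 21.5%, 18.9%, 12% and 6.65% of all gene models tested in the same order of comparisons. Without S maturity replicate 1, edgeR called evm.model.chr3.577, evm.model.chr6.298 and evm.model.chr9.244 for stage in S, beside 36.3% of all gene models tested, and evm.model.chr3.577 for the interaction, beside 10.2%. Without W pea-size replicate 3, it called evm.model.chr3.577 and evm.model.chr15.1878 for genotype at the pea-size stage, beside 17.6%.

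The scale on which libraries were made comparable changed which gene models counted as steady. TMM scaling divides each library by a factor taken from the bulk of the gene models, and its factors ran from 0.850 in S maturity replicate 1 to 1.16 in S maturity replicate 3. On TMM-scaled CPM the ratios of the 76 ran from 1.299 to 2.0 with a median of 1.61, and 35 of them stayed within 1.6. With the size factors of DESeq2 41 stayed within 1.6, and 33 did so on all 3 scales. Applied afresh to TMM-scaled CPM, the rule gave 74 gene models, of which 39 were not among the 76. Applied to counts divided by DESeq2 size factors, it gave 84, of which 43 were not among them. With evm.model.chr2.1477 taken out of the library totals the rule gave 88, of which 59 were among the 76.

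**Figure D4:**
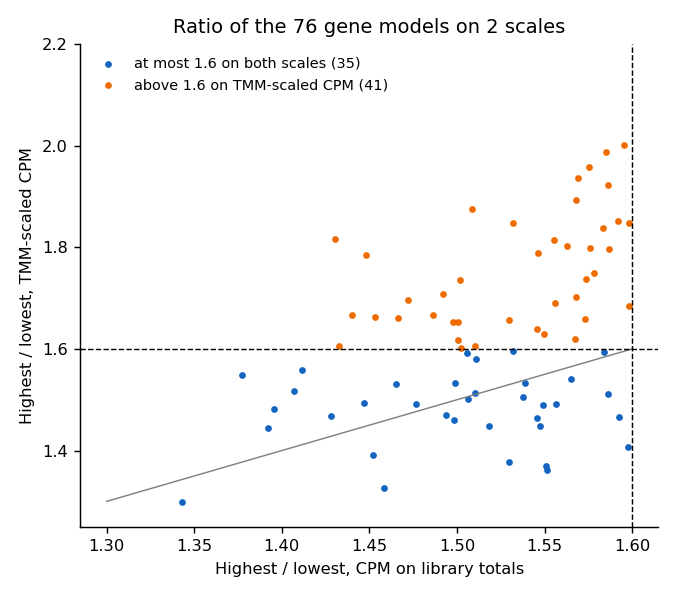
Ratio of the highest to the lowest library for the 76 gene models on TMM-scaled CPM (vertical) against the ratio on CPM (horizontal), with the limit of 1.6 as dashed lines and equality as a grey line. Blue points (35) stay within 1.6 on both scales, and orange points (41) exceed it on TMM-scaled CPM.

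The lowest TMM-scaled ratios of the 76 were those of evm.model.chr11.606 (1.299), evm.model.chr11.559 (1.33) and evm.model.chr4.2109 (1.36). evm.model.chr11.559 had 66.2, 62.3 and 57.3 CPM at W pea-size, 50.2, 57.9 and 61.1 CPM at W maturity, 56.7, 65.2 and 69.9 CPM at S pea-size and 56.2, 54.0 and 73.1 CPM at S maturity. evm.model.chr4.2109 had 91.3, 81.3 and 84.0 CPM at W pea-size, 67.2, 80.2 and 80.9 CPM at W maturity, 94.6, 81.4 and 91.6 CPM at S pea-size and 61.0, 79.5 and 92.0 CPM at S maturity. In both gene models W maturity replicate 1 was the lowest W library. evm.model.chr11.606 was lowest in ratio among the 76 on CPM and on the TMM scale alike. evm.model.chr15.192, just inside the limit on CPM, reached 1.85 on the TMM scale, and evm.model.chr8.1965, the most abundant by CPM, reached 1.69.

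The fitted changes show the same dependence on the scale. On TMM-scaled counts the median log2FC of the 76 was -0.003 for stage in W (37 above 0, 39 below) and 0.18 for stage in S (60 above, 16 below), although their CPM ratios in S were split 42 to 34. For genotype it was 0.19 at the pea-size stage (64 above 0, 12 below) and -0.01 at maturity (36 above, 40 below). Over the gene models averaging at least 30 CPM the medians of the same log2FC were 0.01, 0.07, 0.19 and 0.11. In fits without S maturity replicate 1 the median of the 76 was 0.12 for stage in S (53 above 0, 23 below) and 0.10 for genotype at maturity (55 above, 21 below), beside -0.07 and 0.26 over the gene models averaging at least 30 CPM. On CPM the 76 had their highest library most often in S maturity replicate 3 (13 gene models) and their lowest in S maturity replicate 1 (15). On TMM-scaled CPM these extremes changed places: the highest library was most often S maturity replicate 1 (17) and the lowest S maturity replicate 3 (19). W pea-size replicate 1 was highest for 16, and S pea-size replicates 1, 2 and 3 were lowest for 17, 15 and 8. The median level relative to the mean was 0.894, 0.896 and 0.898 in these S pea-size libraries. In the W libraries it was 1.01 to 1.09.

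As a group the 76 took a nearly constant share of each library. Their summed counts made up 1.13% (S maturity replicate 1) to 1.29% of the gene counts, and their geometric mean CPM differed by a ratio of 1.12 between the highest and lowest library. TMM factors differed by a ratio of 1.37, and the geometric mean divided by the TMM factor by a ratio of 1.23. The choice on CPM fixed the first of these values.

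Ratios between gene models of the same library do not depend on the library total. For each of the 76, the SD over the 12 libraries of the log2 ratio of its count to that of each other member was averaged into a measure called M, as in the geNorm method for choosing reference genes. M ran from 0.22 to 0.30 with a median of 0.26, and the median M of all gene models averaging at least 30 CPM, taken against the same 76, was 0.57. The rule bounded the CPM of the 76 over the same 12 libraries, and so also the count ratios between them. Nothing is read from this contrast. evm.model.chr8.1656 had the lowest M of the members. Among the other gene models 142 had an M no higher than the highest of the 76, and 7 had one below their median. The members were therefore not set apart by M alone.

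Of the 2850 pairs among the 76, 388 (13.6%) kept the ratio of their counts within 1.6 over the 12 libraries, and the median pair varied by a ratio of 1.83. The likeness of a pair is given as a description over 12 libraries that the rule had used. The closest pair was evm.model.chr17.476 and evm.model.chr3.255, with an SD of 0.11 of the log2 count ratio and a ratio that varied by 1.32. evm.model.chr17.476 had 75.5, 76.4 and 76.1 CPM at W pea-size, 57.0, 66.6 and 68.0 CPM at W maturity, 53.4, 60.8 and 62.6 CPM at S pea-size and 50.6, 72.7 and 64.99 CPM at S maturity. evm.model.chr3.255 had 184.3, 177.6 and 174.5 CPM at W pea-size, 162.2, 163.8 and 173.3 CPM at W maturity, 146.0, 152.6 and 135.3 CPM at S pea-size and 123.0, 180.5 and 156.4 CPM at S maturity. Both had all W pea-size libraries above all W maturity and S pea-size libraries, and both were lowest in S maturity replicate 1. The next pairs were evm.model.chr3.577 with evm.model.chr4.2362 (SD 0.11, ratio 1.255) and evm.model.chr10.1391 with evm.model.chr6.382 (SD 0.11, ratio 1.29).

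The 76 were spread over 18 of the 20 chromosomes. Chromosome 8 held 9 of them among its 504 gene models averaging at least 30 CPM, chromosome 9 held 7 of 226 (3.10%) and chromosome 6 held 6 of 385. Chromosome 14 held none of 421 and chromosome 16 none of 233. The nearest members were evm.model.chr9.193 and evm.model.chr9.196, which are 3 places apart in the listed order. evm.model.chr9.193 had 180.7 to 283.3 CPM and was lower at S pea-size than at W pea-size in every library. evm.model.chr9.196 had 48.7 to 74.5 CPM and overlapped between all groups. The next nearest pairs lay 10 places (evm.model.chr8.1902 and evm.model.chr8.1913) and 11 places (evm.model.chr3.529 and evm.model.chr3.548) apart.

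A test of steadiness needs libraries that had no part in the choice. The rule was therefore applied to the 6 libraries of a genotype or a stage, and the gene models it gave were read in the 6 libraries of the other. The ratio was taken within the reading libraries alone. A shift in level between the choosing and the reading libraries is therefore not seen by these shares. The 6 W libraries gave 1159 gene models, of which 272 (23.5%) stayed within 1.6 in S, beside 14.2% of all gene models averaging at least 30 CPM in W. The 6 S libraries gave 894, of which 265 (29.6%) stayed within 1.6 in W, beside 16.7%. The 6 pea-size libraries gave 1194, of which 173 (14.5%) stayed within 1.6 at maturity, beside 8.93%, and the 6 maturity libraries gave 599, of which 174 (29.0%) stayed within 1.6 at the pea-size stage, beside 18.1%. In each case the larger part of the chosen gene models exceeded the limit in the libraries not used. The median ratio there was 2.04 for those chosen in W against 2.46 for all, 1.82 against 2.16 for S, 2.21 against 2.64 for pea-size and 1.83 against 2.11 for maturity. With S maturity replicate 1 left out, the choice on W gave 449 of 1159 within 1.6 in S (38.7% beside 27.7%), that on S 447 of 1846 in W (24.2% beside 16.5%), that on pea-size 335 of 1194 at maturity (28.1% beside 18%) and that on maturity 338 of 1225 at pea-size (27.6% beside 17.9%). A ratio over 5 libraries cannot exceed that over the 6, so these counts can rise whichever library is left out. Other libraries were not left out of these shares.

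**Figure D5:**
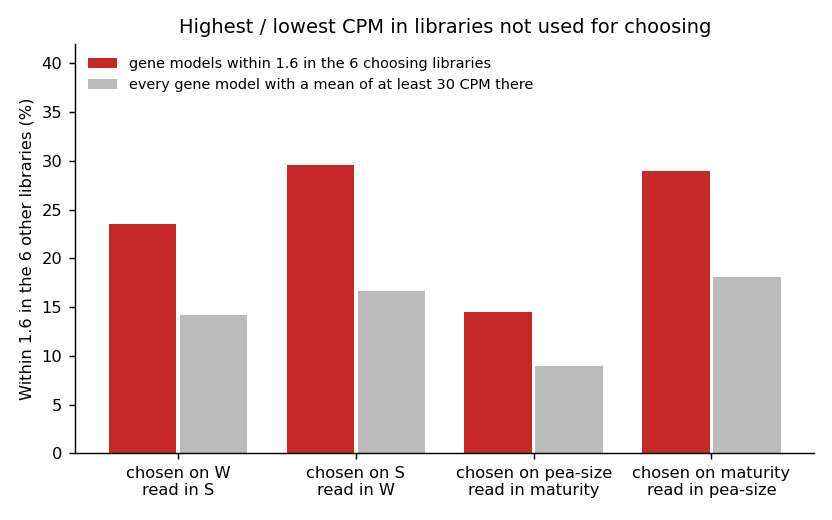
Percent of gene models with a highest to lowest CPM ratio of at most 1.6 in 6 libraries that were not used to choose them (vertical), for each choice of 6 libraries (horizontal). Red bars are gene models that met the rule in the choosing libraries (23.5%, 29.6%, 14.5% and 29.0%), and grey bars are all gene models averaging at least 30 CPM there (14.2%, 16.7%, 8.93% and 18.1%).

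The stage test in S was run on gene models chosen in W alone. Of the 1159 steady in W, edgeR called 86 for stage in S (50 higher at maturity, 36 lower), 7.42% beside 12.4% of all gene models averaging at least 30 CPM in W. The median size of the log2FC was 0.37 for the chosen and 0.46 for all. With library totals in place of TMM factors the count was 70, split 17 higher and 53 lower, beside 11.2% of all. The numbers of higher and lower calls thus moved with the scale. evm.model.chr1.1056, named after its values were seen as the called gene model with the lowest adjusted p, had 105.9 to 156.6 CPM over the W libraries. It rose in S from 32.01, 19.4 and 24.0 CPM at the pea-size stage to 140.5, 379.3 and 512.0 CPM at maturity (log2FC 3.86, SE 0.46, edgeR adjusted p = 0.00541). Without S maturity replicate 1 the count of calls was 470 of 1159 (40.6%, beside 48% of all). It was 14 when S maturity replicate 2 was left out (beside 4.72%), 24 for S maturity replicate 3 (beside 6.04%) and 1 for each of the 3 S pea-size replicates (beside 1.67%, 1.66% and 1.61%). The share of all gene models moved in the same direction each time.

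In the reverse direction, 1 of the 894 gene models steady in S was called for stage in W, 0.112% beside 1.09% of all averaging at least 30 CPM in S. It was evm.model.chr8.2079, named after its values were seen. Its S libraries had 70.1 to 99.0 CPM. It rose in W from 106.3, 95.0 and 82.0 CPM at the pea-size stage to 219.1, 278.4 and 291.8 CPM at maturity (log2FC 1.44, SE 0.24, edgeR adjusted p = 0.0267). At an unadjusted p under 0.05, 47 of the 894 passed, beside 14% of all. DESeq2 called 6 of the 894, beside 3.91%. The count was 7 without W pea-size replicate 3, beside 4.48%. It was 0 on leaving out W pea-size replicates 1 or 2 (beside 0.319% each) or W maturity replicates 2 or 3 (beside 0.116% and 0.145%).

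For genotype, gene models chosen at a stage were tested at the other. Of the 599 steady at maturity, edgeR called 42 at the pea-size stage (33 higher in W, 9 lower), 7.01% beside 14.3% of all averaging at least 30 CPM at maturity. With library totals the calls were 37, split 20 higher and 17 lower, beside 13.1% of all. evm.model.chr20.676, again the lowest adjusted p and named after its values were seen, lay between 334.1 and 527.9 CPM at maturity. At the pea-size stage it had 347.1, 414.1 and 400.8 CPM in W and 157.6, 124.0 and 126.4 CPM in S (log2FC 1.66, SE 0.21, edgeR adjusted p = 0.00127). evm.model.chr6.2117 was the called gene model of lowest adjusted p in the other direction, at 180.0, 197.1 and 241.4 CPM in W and 938.6, 691.0 and 692.6 CPM in S (log2FC -1.76, SE 0.23, edgeR adjusted p = 0.00138). The count was 90 when W pea-size replicate 3 was left out (beside 24.9%), and 9, 13 and 15 for S pea-size replicates 1, 2 and 3 (1.5%, 2.17% and 2.5% beside 4.4%, 5.53% and 5.39%).

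Of the 1194 steady at the pea-size stage, edgeR called 15 for genotype at maturity (13 higher in W, 2 lower), 1.26% beside 2.96% of all averaging at least 30 CPM at the pea-size stage. evm.model.chr4.2063, the lowest adjusted p and named after its values were seen, lay between 124.4 and 192.2 CPM at the pea-size stage. At maturity it had 334.7, 354.8 and 369.8 CPM in W and 32.4, 40.3 and 91.3 CPM in S (log2FC 2.72, SE 0.37, edgeR adjusted p = 0.0225). The count was 355 when S maturity replicate 1 was left out (29.7% beside 37.4%), 1 for each of the other S maturity libraries (beside 0.513% and 0.483%), and 0 for each of the 3 W maturity libraries (beside 0.0905%, 0.121% and 0.0754%). In all 4 tests the share called among the chosen gene models was below that of all gene models averaging at least 30 CPM, and the difference of the shares was not tested.

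When a single library was left out of the choice, the rule over the other 11 gave between 89 gene models (W maturity replicate 3 left out) and 148 (S maturity replicate 1 left out). The 76 had to be among them, since leaving out a library cannot raise a ratio and their means stayed above the limit. Of the 89 all lay within 1.6 of their mean in the library left out, beside 80.9% of all gene models averaging at least 30 CPM. Of the 148 it was 79.7%, beside 59.3%. Their median log2 deviation in S maturity replicate 1 was -0.39, beside -0.36 over all gene models averaging at least 30 CPM. The 72 gene models that the rule added without S maturity replicate 1 lay below their mean there in 71 cases, at a median of 0.651 of it. These 72 exceeded the limit only through this library, so nothing is read from their deviation. The SD of the log2 deviation in the library left out was 0.23 to 0.43 for the chosen gene models and 0.74 to 1.40 for all averaging at least 30 CPM, over the 12 choices of library. The gene models chosen on 11 libraries thus had a smaller SD of deviation in the library left out than all gene models averaging at least 30 CPM, in each of the 12 cases. That difference was not tested.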

How the data were processed

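RNA from pedicels was sequenced with a directional kit, and the strand setting of the counting is not given in the sources used here. The authors used Cutadapt for trimming, STAR for mapping to 'Noble' and HTSeq for counting uniquely mapped reads after removal of duplicates. The deposited values are raw counts per gene model with 5 summary entries, which were left out of library totals and tests (15.2% to 34.7% of reads). Groups came from the genotype and developmental stage labels, and a tissue type label that reads mature for all 12 libraries was not used.

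CPM used library totals. Tests used edgeR 4.0.16 (quasi-likelihood, robust, TMM, filterByExpr) in R 4.3.3 on the 6 libraries of a comparison, or all 12 for the interaction, with Benjamini-Hochberg adjustment. SE is the size of the log2FC over the square root of F. Alternatives were DESeq2 1.42.0, other scalings, filters and limits, a replicate block and each library left out. M used a pseudocount of 0.5 counts. The selection and the tests were checked on simulated data. Figures used Python 3.11.15 and matplotlib 3.10.9.

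The gene models, limits and lists were chosen with earlier results of these data known. Named were the 5 lowest ratios, the 3 highest and the lowest mean CPM, the gene models next to each limit, the 3 lowest TMM ratios and the largest fitted rise and fall in each genotype. Taking evm.model.chr2.1477 out of the totals, and the group descriptions and held-out shares without S maturity replicate 1, were chosen after seeing the data.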

Additional observations from a re-analysis of the deposited data

Results flagged for a closer look

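On CPM, every W library of evm.model.chr3.124 was higher at maturity than every pea-size one, and every S library was lower. In W it had 69.7, 73.1 and 73.8 CPM at the pea-size stage and 79.5, 80.1 and 78.8 CPM at maturity, a ratio of group means of 1.10. In S it had 73.4, 107.7 and 100.2 CPM at the pea-size stage and 71.1, 72.8 and 70.3 CPM at maturity, a ratio of 0.761. The log2 ratio of W minus that of S was 0.53, and edgeR's interaction test did not call it (adjusted p = 0.647). On TMM-scaled CPM its S stages overlapped, at 68.8, 99.2 and 94.8 at the pea-size stage and 83.6, 72.6 and 60.5 at maturity.

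evm.model.chr17.165 differed the other way, lower at maturity in every W library and higher in every S library. It had 73.3, 63.1 and 66.7 CPM at W pea-size and 56.5, 47.8 and 57.8 CPM at W maturity, a ratio of 0.798. It had 54.1, 54.8 and 56.9 CPM at S pea-size and 70.7, 62.7 and 75.4 CPM at S maturity, a ratio of 1.26. The log2 ratio of W minus that of S was -0.66, and edgeR's interaction test did not call it (adjusted p = 0.271).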

How the results depend on the processing

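The set of 76 became 25 with a ratio limit of 1.5, 635 with a limit of 2, 33 with a minimum of 100 CPM, 2211 when group means replaced single libraries, and 89 to 148 with a library left out. Thinning every library to 4705119 gene counts gave 70, of which 56 were among the 76. Each share of calls below is set beside that of all gene models averaging at least 30 CPM in the choosing libraries. Gene models steady in W gave 86 stage calls in S (7.42% beside 12.4%). The count was 148 with all 12 libraries in 1 fit (12.8% beside 14.8%) and 180 with DESeq2 (15.8% beside 22.2%). With a library left out it was 1 to 470 (0.0863% to 40.6% beside 1.61% to 48%). Those steady in S gave 1 call in W (0.112% beside 1.09%). The count was 2 with library totals (0.224% beside 1.02%) and 5 with no filter on low counts (0.559% beside 2.9%). It was 6 with DESeq2 (0.671% beside 3.91%) and 0 to 7 with a library left out (0% to 0.783% beside 0.116% to 4.48%). Those steady at the pea-size stage gave 15 genotype calls at maturity (1.26% beside 2.96%). The count was 116 with all 12 libraries in 1 fit (9.72% beside 11.4%) and 92 with DESeq2 (7.81% beside 13.3%). With a library left out it was 0 to 355 (0% to 29.7% beside 0.0754% to 37.4%). A fit of all 12 libraries takes its spread partly from the libraries that chose the gene models. The counts of 148 and 116 are therefore not held-out counts. Those steady at maturity gave 42 at the pea-size stage (7.01% beside 14.3%). The count was 27 with a log2FC of at least 1 in size (4.51% beside 11.3%) and 78 with DESeq2 (13% beside 21.7%). With a library left out it was 9 to 90 (1.5% to 15% beside 4.4% to 24.9%). For the 76 themselves the count of 0 calls became 1 with DESeq2 for genotype at the pea-size stage (beside 18.9% of all gene models tested). It also became 1 for the interaction (beside 6.65%). With a library left out it reached 3 for stage in S (beside 36.3%), 2 for genotype at the pea-size stage (beside 17.6%) and 1 for the interaction (beside 10.2%). It was 0 in every setting tried for stage in W and for genotype at maturity. Without S maturity replicate 1, added after seeing the data, the gene models chosen in 1 set of libraries and within 1.6 in the other went from 272 to 449 for W read in S, 265 to 447 for S read in W, 173 to 335 for pea-size read at maturity and 174 to 338 for maturity read at pea-size. Such counts can rise whichever library is left out, since leaving out a library cannot raise a ratio. The ratios of the 16 named members moved by more than the replicate spread in 5 cases with TMM, in 3 with DESeq2 size factors and in 1 of 192 with a library left out. A ratio can move only when its highest or its lowest library is left out. Most of the 192 cases could therefore not move, and nothing is read from this count.

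With the replicate block, the calls of gene models chosen elsewhere were 5 for stage in S (0.431% beside 4.4%) and 1 for stage in W (0.112% beside 1.21%). They were 0 for genotype at maturity (beside 0.136%) and 25 for genotype at the pea-size stage (4.17% beside 9.6%). Libraries of the same number had deviations from the group means that correlated from -0.128 to 0.0256, and 2 of 12 correlated best with their own number, so the numbers were not taken as pairs. The cause of these differences was not tested. At 168 counts, the lowest of any member in a library, counting alone gives a CV of 7.71%, which limits how small a shift can be seen.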
